A study of Homo sapiens with 8 samples.

Results

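The 49 genes described here encode the proteins that copy DNA in S phase. They were taken by gene symbol from the 2 tables of read counts. The list was chosen with earlier results of these data known, so no p is given over it. Of the 49 symbols, 49 were listed in both tables, which hold 42125 and 23393 genes in all. All 49 also passed the expression filter of each experiment, in which 14991 and 13381 genes were tested. By role they were 12 origin licensing genes, 8 origin firing genes, 9 subunits of the DNA polymerases and primase, 9 genes of the sliding clamp, its loader and the lagging strand, 4 genes of nucleotide supply, 4 genes of G1/S control and 3 genes of chromatin at the fork.

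mRNA was sequenced from HCT116, a human colorectal carcinoma cell line, in 4 groups of 2 replicates. All 8 libraries came from cells that stably carry Tet-On shSAE2, a short hairpin RNA against SAE2 that doxycycline switches on. SAE2 is another name of UBA2, the catalytic subunit of the enzyme that activates SUMO, a small protein that is attached to other proteins. In the first experiment these cells received a control siRNA or an siRNA against the transcription factor TFAP2C (TFAP2C KD) for 48 hrs. In the second they received DMSO (control) or 1 ug/mL of doxycycline (SAE2 kd) for 5 days, so that both arms carry the hairpin and the treated arm alone received doxycycline. The labels do not say whether the cells are 1 clone, nor whether replicates came from separate cultures. The p-values therefore measure the spread between these samples only, which may be technical. The question addressed here is whether the replication genes moved in either experiment, and whether they moved differently in the 2.

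DNA replication begins at origins. In G1 the origin recognition complex, CDC6 and CDT1 load the MCM2 to MCM7 ring, which is the inactive helicase, and geminin (GMNN) later blocks further loading by binding CDT1. In S phase the kinase of CDC7 and DBF4 and the cyclin-dependent kinases turn the ring into a working helicase with CDC45 and the GINS complex, polymerase alpha with primase starts each strand, and polymerases delta and epsilon extend it on the PCNA clamp. Cyclin E and the E2F factors act at the entry to S phase, and many genes of replication are known E2F targets, with levels that are highest in cells around S phase. In bulk RNA, fewer cells in S phase and less RNA per cell cannot be told apart.

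The DNA before the start sites is shown first for 5 members, because they include 2 of the 3 members that passed a test below, CCNE1 and FEN1, and span the number of E2F words found. Windows of 300 bases, from 250 before to 50 after the start, were taken from RefSeq on GRCh38.p14. They were found for 42 of the 49 genes, in 55 windows. MCM4, MCM5, GINS4, POLD3, RPA2, RPA3 and CCNE2 had none. The E2F word searched was TTCCCGC or its variants with other middle letters, which were TTGGCGC, then the closely related TTCGCGC, and last the form TTGCCGC, on either strand. Overlapping words were counted apart. The 250 bases before the start are printed on the strand of the gene, 5′ to 3′, in lower case with the E2F words in capitals. CCNE1, which encodes cyclin E1, is at chr19:29811741-29811990 on the plus strand. FEN1, the nuclease that trims the flaps of Okazaki fragments, is at chr11:61792661-61792910 on the plus strand. TYMS, which encodes thymidylate synthase, is at chr18:657403-657652 on the plus strand. E2F1, the S-phase transcription factor, is at chr20:33686386-33686635 on the minus strand, and MCM6, a helicase subunit, is at chr2:135876444-135876693 on the minus strand.
CCNE1: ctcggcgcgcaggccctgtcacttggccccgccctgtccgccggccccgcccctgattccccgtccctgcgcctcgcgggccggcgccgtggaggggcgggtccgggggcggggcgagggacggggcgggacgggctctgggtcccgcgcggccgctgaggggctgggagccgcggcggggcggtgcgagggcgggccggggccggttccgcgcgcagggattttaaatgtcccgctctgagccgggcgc
FEN1: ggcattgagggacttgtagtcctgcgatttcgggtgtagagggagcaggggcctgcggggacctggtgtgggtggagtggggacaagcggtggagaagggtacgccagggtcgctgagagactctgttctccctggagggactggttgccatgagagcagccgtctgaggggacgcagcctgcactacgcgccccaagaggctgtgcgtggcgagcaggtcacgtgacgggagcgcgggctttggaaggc
TYMS: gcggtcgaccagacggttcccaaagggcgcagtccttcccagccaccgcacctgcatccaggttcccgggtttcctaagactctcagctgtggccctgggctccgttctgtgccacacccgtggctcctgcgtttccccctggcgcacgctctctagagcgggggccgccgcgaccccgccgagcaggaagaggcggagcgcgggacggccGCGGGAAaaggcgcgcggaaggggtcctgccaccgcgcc
E2F1: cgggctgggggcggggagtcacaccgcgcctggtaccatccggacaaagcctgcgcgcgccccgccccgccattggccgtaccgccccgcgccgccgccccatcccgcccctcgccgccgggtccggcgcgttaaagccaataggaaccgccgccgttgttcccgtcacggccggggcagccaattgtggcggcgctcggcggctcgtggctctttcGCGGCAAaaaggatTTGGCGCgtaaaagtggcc
MCM6: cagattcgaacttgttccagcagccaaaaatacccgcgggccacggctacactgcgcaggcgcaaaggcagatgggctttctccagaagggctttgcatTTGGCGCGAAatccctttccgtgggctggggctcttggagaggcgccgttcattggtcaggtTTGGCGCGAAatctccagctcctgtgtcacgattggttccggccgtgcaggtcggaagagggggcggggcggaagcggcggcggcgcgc
CCNE1 and FEN1 held 0 of these words, TYMS held 1, E2F1 held 2 and MCM6 held 4. The words of MCM6 lie in the same 10 letters at 151 and 89 bases before the start, where TTGGCGC overlaps with the reverse complement of TTCGCGC. FEN1 held the E-box CACGTG at 30 bases before its start.

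Over all members, 35 of 55 windows (63.6%) held an E2F word, against 13.0% of the 35116 RefSeq windows and 19.1% of the 14219 windows of genes that were tested in both experiments. By gene these were 32 of 42 members (76.2%), against 15.3% of all genes with a window. The 10 members with a window and without the words were CCNE1, CDC45, DBF4, FEN1, MCM10, ORC2, ORC6, POLD1, POLD2 and PRIM2. The AP-2 word GCCNNNGGC, in which N is any base, was found in 32.7% of the windows of members against 23.2% of all windows and 31.3% of those of genes tested in both. By gene it was found in 18 of 42 members (42.9%) and in 26.6% of all genes with a window. No share by gene was taken over the genes tested in both experiments, and a gene with more windows has more chances of a match. CCAAT was found in 54.5% of the windows of members and in 34.4% of those of genes tested in both, and the E-box in 9.09% and 9.30%. A word is only a match of letters, and binding was not analysed here.

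The libraries held 18213739 to 24465109 counts. The biological coefficient of variation fitted by edgeR was larger in the first experiment (6.28%) than in the second (3.56%). TFAP2C had 18.9 and 20.5 CPM (the count scaled by library size) with control siRNA and 3.46 and 4.30 CPM in TFAP2C KD, so the groups were well apart (log2 fold change -2.34, SE 0.13, adjusted p = 7.67e-06). UBA2 had 162 and 146 CPM in the control and 147 and 153 CPM in SAE2 kd. Its groups overlapped, and its log2 fold change of -0.04 had a 95% interval of -0.15 to 0.08 (adjusted p = 0.766), so the mRNA does not check the label and the libraries are called those labelled SAE2 kd. The 2 libraries of TFAP2C KD differed from each other more than those of the other groups, with a chi-square per degree of freedom of 8.97 over genes against 2.55 to 2.75. Colon epithelial markers were present, with 9 of 11 tested in each experiment, and summed to 3142 to 3265 CPM with control siRNA, 3470 to 3760 in TFAP2C KD, 2289 to 2309 in the control and 2535 to 2621 in the libraries labelled SAE2 kd. VIL1 was at or under 0.144 CPM in every library. LGALS4 had means of 0.131 and 0.0536 CPM in the first and second experiment, and KRT20 of 2.51 and 0.592. KRT19, a general epithelial keratin, had means of 1291.5 and 156 CPM. Of the 11 colon epithelial markers 0 passed the test in the first experiment and 4 in the second. Their part in the results below was not tested. Leukocyte markers summed to at most 7.52 CPM and endothelial ones to at most 2.67, with fibroblast markers at 15.1 to 48.3 CPM, nearly all COL1A1, and with COL1A2, DCN and LUM at 0.

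The members had 88 to 9742 counts per library in the first experiment and 411 to 12754 in the second. Levels between genes are given as RPKM, which is CPM per kilobase of the gene length in the table. PCNA, the sliding clamp, was highest with control siRNA at 138 and 133 RPKM. It was followed by the thymidine kinase TK1 with 115 and 111 RPKM, MCM7 with 84.8 and 82.5, and TYMS with 72.5 and 72.0. None of these neighbours overlapped. In the control of the second experiment, TYMS led with 213 and 207 RPKM, before PCNA with 188 and 181 and MCM7 with 178 and 175. MCM3, TK1 and RRM2 came next, between 137 and 147 RPKM, and their replicates overlapped. These orders depend on the gene lengths, which differ between the experiments. In the first and second, PCNA has 1.40 and 2.09 kb, TYMS 2.41 and 1.58 kb, and RRM2 9.14 and 3.42 kb. By mean CPM, PCNA was above TYMS with control siRNA (189 against 174) and in the control (385 against 331).

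At the lower end, POLD3, a subunit of polymerase delta, had 10.2 and 9.43 RPKM in the control, and CCNE2, E2F2 and POLA2 were the next above it. With control siRNA the lowest was POLA2, a subunit of polymerase alpha, with 0.895 and 0.760 RPKM, below CCNE2 with 2.11 and 1.81. The row of POLA2 in that table overlaps another protein-coding row, AP000944.2, on the same strand, and how reads in such overlaps were counted is not given in the sources used here. The rows of FEN1, PRIM1 and CHAF1B in that table likewise overlap FADS2, NACA and MORC3, and TYMS overlaps ENOSF1 on the opposite strand in both tables, so their levels are uncertain to that extent.

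The order of the members was much the same in the 2 control groups, with a Spearman rho of 0.90 and a Pearson r of 0.88 of log2 RPKM over the 49 genes, which were counted by different gene models. The level was not: the median RPKM was 13.0 with control siRNA and 31.6 in the control. As a share of all counts, the members took 0.402% to 0.438% in the libraries of the first experiment and 0.743% to 0.784% in those of the second. By CPM, 46 of 49 members were lower with control siRNA than in the control, with a median ratio of 0.492, from 0.0946 for POLA2 to 1.05 for CDT1. The GC content of the transcript moved with this ratio (Pearson r 0.55, Spearman rho 0.65 over 49 genes, and 0.74 and 0.70 over 48 genes without POLA2). The tables also differ in annotation. Mitochondrial genes took 9.79% to 9.96% of the counts in the first. Their share was 0 in the second, which a list without these genes would also give, so it is not a measured absence. Transfection, time and counting cannot be told apart in the difference between the 2 control groups, which was not tested.

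**Figure D1:**
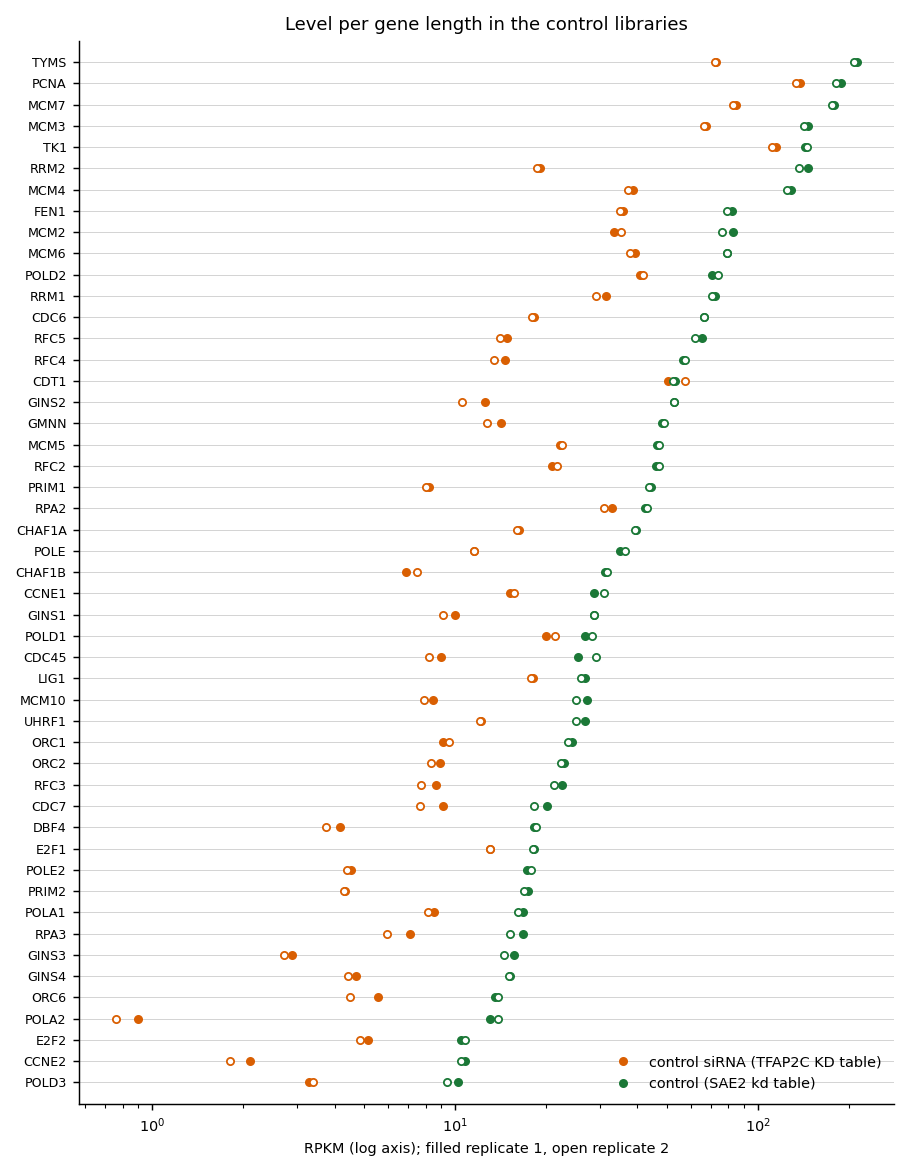
Level of each of the 49 genes in the 2 control groups, in RPKM on a log axis, with genes ordered by their mean in the control of the second experiment. Each point is 1 library (filled replicate 1, open replicate 2). Most orange points (control siRNA) lie to the left of the green points (control), except for CDT1, and POLA2 stands farthest apart.

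In TFAP2C KD, 0 of the 49 replication genes rose and 0 fell at an adjusted p under 0.05 (edgeR quasi-likelihood test, Benjamini-Hochberg over all genes tested). Of all genes tested, 0.74% passed, 0.26% higher and 0.48% lower. DESeq2 also called 0 members. At an unadjusted p under 0.05, 3 members were higher (RRM2, E2F1 and CCNE1) and 0 were lower, where 5.68% and 6.92% of all genes were. The log2 fold changes of the members ran from -0.20 to 0.23 with a median of 0.04, against 0.00 for all genes tested (-0.0038), and 30 of 49 were above 0 and 19 below, where 49.1% and 50.9% of all genes were. Both knockdown libraries lay above both controls for 13 members (26.5%) and below them for 1 (2.04%), GMNN, where 22.4% of all genes were above and 22.4% below. The lowest adjusted p of a member was 0.257, that of RRM2.

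The largest positive differences were those of 2 genes of G1/S control and 1 of nucleotide supply. CCNE1 had 37.3 and 38.4 CPM with control siRNA and 45.9 and 42.5 CPM in TFAP2C KD. E2F1 had 34.9 and 35.0 CPM against 43.8 and 37.6 CPM. RRM2, the regulated subunit of ribonucleotide reductase, which makes deoxynucleotides, had 175 and 171 CPM against 214 and 188 CPM. Picking the largest rises makes separation from the controls likelier, and 22.4% of all genes lay above both controls. In each of the 3, both knockdown libraries were above both controls, with replicate 1 of TFAP2C KD the higher. Their log2 fold changes were 0.23 (SE 0.083, adjusted p = 0.278) for CCNE1, 0.22 (SE 0.092, adjusted p = 0.350) for E2F1 and 0.22 (SE 0.076, adjusted p = 0.257) for RRM2, so that none passed the test by edgeR. CCNE2, the other cyclin E, had 9.23 and 7.91 CPM against 7.50 and 12.5 CPM, with the controls between the knockdown libraries.

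The largest negative differences were in initiation and priming. CDC7, the kinase that activates the helicase, had 32.8 and 27.4 CPM with control siRNA and 23.4 and 28.9 CPM in TFAP2C KD, so its groups overlapped (log2 fold change -0.20, SE 0.12, adjusted p = 0.496). GMNN had 34.9 and 31.5 CPM against 30.1 and 27.8 CPM, with no overlap (-0.20, SE 0.092, adjusted p = 0.397). POLA2 had 4.97 and 4.22 CPM against 4.09 and 4.30 CPM, from 88 to 121 counts per library, and overlapped (-0.14, SE 0.16, adjusted p = 0.752).

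None of the helicase genes MCM2 to MCM7 passed in TFAP2C KD, and their log2 fold changes ran from -0.04 to 0.05. MCM3, for example, had 245 and 242 CPM with control siRNA and 257 and 229 CPM in TFAP2C KD, and its 95% interval was -0.16 to 0.16. In these 6 genes the controls lay between the 2 knockdown libraries. By role, the median log2 fold change was -0.02 for the 12 licensing genes, 0.05 for the 8 firing genes, 0.04 for the 9 polymerase and primase genes, 0.03 for the 9 clamp, loader and lagging strand genes, 0.04 for the 4 genes of nucleotide supply, 0.22 for the 4 genes of G1/S control and 0.08 for the 3 chromatin genes. All 4 genes of G1/S control were above 0, and 8 of the 12 licensing genes were below 0.

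The 2 libraries of TFAP2C KD gave different counts of calls. Replicate 2 was above replicate 1 for 10 of the 49 members in TFAP2C KD and for 12 with control siRNA, 19 in the control and 20 in the libraries labelled SAE2 kd. The median of replicate 2 minus replicate 1 on the log2 scale was -0.12, -0.05, -0.02 and -0.04. When 1 library is left out, the spread comes from the pair of the other group alone, and the remaining library is assumed to vary like it. This holds for every such fit of 1 experiment here, and the replicates of control siRNA were closer than those of TFAP2C KD. Without replicate 2 of TFAP2C KD, 8 members were called higher (CCNE1, E2F1, E2F2, FEN1, GINS1, POLD2, RRM2 and UHRF1) and CDC7 lower, the median was 0.08, and 18.2% of all genes were called. By direction these were 16.3% of the members higher and 2.04% lower, beside 8.56% and 9.62% of all genes. Without replicate 1, CCNE2 alone was called higher, the median was -0.03, and 3.49% of all genes were called.

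The difference between replicates followed GC content in every group. Over the 49 members, log2 CPM of replicate 2 minus replicate 1 had a Pearson r with the GC content of the transcript of 0.52 with control siRNA, -0.58 in TFAP2C KD, 0.31 in the control and -0.62 in the libraries labelled SAE2 kd. These values describe the libraries, since all members of a group share them. Over all genes with at least 50 counts, the Spearman rho was 0.43, -0.57, 0.30 and -0.53. The log2 fold change between groups had a Spearman rho with GC of -0.05 over the members and 0.17 over all 13155 genes with a GC value for TFAP2C KD, and of 0.15 and -0.02 for the libraries labelled SAE2 kd.

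**Figure D2:**
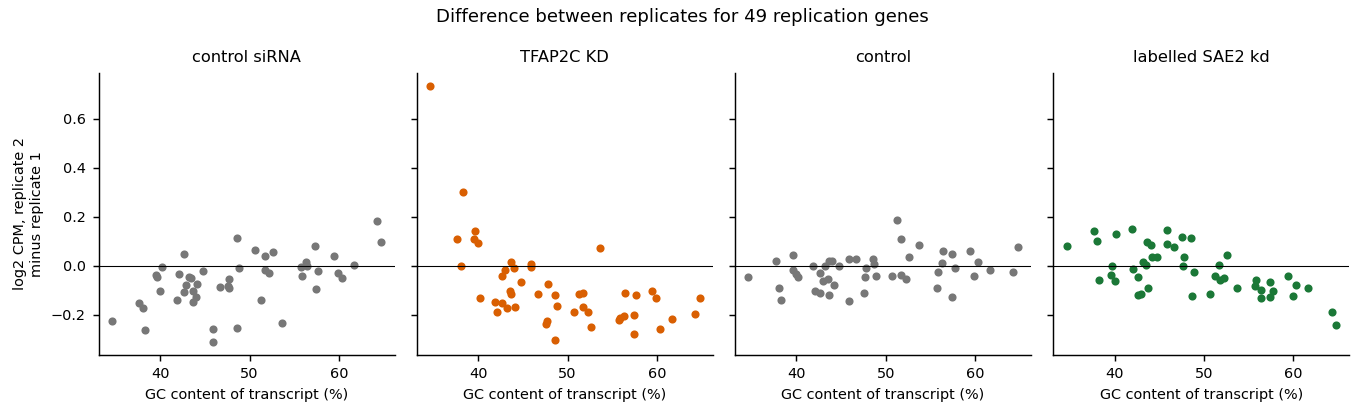
Difference between the replicates of each group (log2 CPM of replicate 2 minus replicate 1) against the GC content of the transcript in percent, 1 point for each of the 49 genes. The difference rose with GC content with control siRNA (r = 0.52). It fell with GC content in TFAP2C KD (r = -0.58) and in SAE2 kd (r = -0.62). The point at the top left of TFAP2C KD is CCNE2.

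In the libraries labelled SAE2 kd, 1 replication gene was higher and 2 were lower than in the control at an adjusted p under 0.05 by edgeR. These are 2.04% and 4.08% of the members, where 5.52% and 4.47% of all genes tested were called higher and lower, 9.98% in all. The higher gene was CCNE1, and the lower were FEN1 and MCM4. At an unadjusted p under 0.05, 3 members were higher (CCNE1, ORC2 and CDT1) and 4 lower (FEN1, MCM4, TYMS and TK1), where 11.7% and 11% of all genes were. The log2 fold changes ran from -0.18 to 0.26 with a median of -0.02, against 0.00 for all genes tested (-0.00042), and 19 of 49 were above 0 and 30 below, where 49.9% and 50.1% of all genes were. Both libraries lay below both controls for 16 members (32.7%) and above them for 5 (10.2%), where 25.8% and 25.5% of all genes did.

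CCNE1 (chr19:30302901-30315215 on hg19) had 56.6 and 61.2 CPM in the control and 71.7 and 69.0 CPM in the libraries labelled SAE2 kd. All of the latter were above the controls. The log2 fold change was 0.26 (SE 0.064, adjusted p = 0.00771), or 19.4% with a 95% interval of 8.99% to 30.8%. The other genes of G1/S control did not pass, although CCNE2 and E2F1 were also above both controls, at 0.08 each.

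FEN1 (chr11:61560109-61564714 on hg19) had 188 and 181 CPM in the control and 165 and 160 CPM in the libraries labelled SAE2 kd. MCM4, a helicase subunit, had 631 and 611 CPM against 564 and 564 CPM. As for CCNE1, the groups did not overlap for either gene, which is nearly given for genes that passed the test. FEN1 fell by 0.18 on the log2 scale (SE 0.052, adjusted p = 0.0194) and MCM4 fell by 0.14 (SE 0.042, adjusted p = 0.0324). Without control replicate 1 none of the 3 passed, and the adjusted p was 0.132 for CCNE1, 0.182 for FEN1 and 0.245 for MCM4. MCM4 did not pass when any of the 4 libraries was left out (adjusted p 0.0570 to 0.245), and FEN1 also lost its call without replicate 2 of SAE2 kd (adjusted p = 0.0869). In the fit of all 8 libraries CCNE1 alone passed, with an adjusted p of 0.140 for FEN1 and 0.278 for MCM4. That fit estimates the spread of a gene from both experiments together, and the first had the larger coefficient of variation (6.28% against 3.56%). This holds wherever that fit is given below, and its part in the lost calls was not tested.

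A further 3 members stood at the ends of the range. Picking them there makes separation from the controls likelier, and 25.5% of all genes lay above both controls and 25.8% below. TYMS had 336 and 327 CPM in the control and 305 and 300 CPM in the libraries labelled SAE2 kd, with no overlap, and a log2 fold change of -0.13 (SE 0.046, adjusted p = 0.0653). ORC2, a subunit of the origin recognition complex, had 71.3 and 69.8 CPM against 80.3 and 76.9 CPM, also with no overlap (0.16, SE 0.061, adjusted p = 0.109). CDT1, the loader of the MCM ring, had 142 and 140 CPM against 165 and 145 CPM, above both controls but with its 2 libraries far apart (0.13, SE 0.058, adjusted p = 0.150). CDT1 passed without replicate 2 of SAE2 kd (0.23, adjusted p = 0.00536), and so did POLD1, and CDT1 was at 0.04 without replicate 1 (adjusted p = 0.813). In another alternative, chosen after seeing the data, the trend with GC content of each library's deviation from the mean library was removed. All 3 then passed beside CCNE1, FEN1 and MCM4, and 16.6% of all genes were called.

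**Figure D3:**
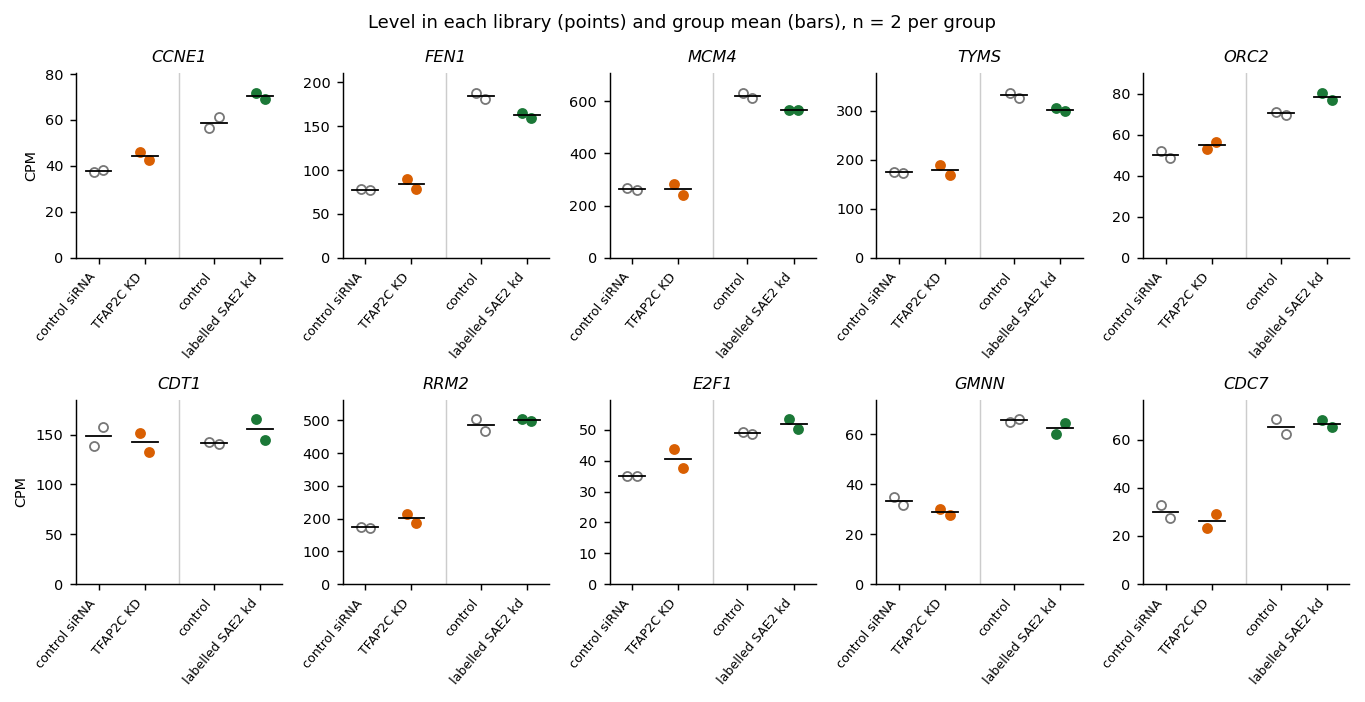
CPM of 10 replication genes in each library, with the group mean as a bar and 2 libraries per group. The grey line parts the experiments, whose tables were normalised separately. CCNE1 lies higher and FEN1, MCM4 and TYMS lie lower in the libraries labelled SAE2 kd than in both controls, and the 2 libraries of TFAP2C KD are farther apart than those of control siRNA in most panels.

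Among the 6 ring subunits, the libraries labelled SAE2 kd lay below both controls for MCM3, MCM4, MCM6 and MCM7, where 25.8% of all genes did. Of these MCM4 alone passed the test. MCM6 was barely apart, with 297.9 and 297.7 CPM in the control and 292.3 and 295.7 CPM (log2 fold change -0.02), and MCM7 was at -0.05. MCM3 had 466 and 454 CPM in the control and 434 and 436 CPM (log2 fold change -0.08, adjusted p = 0.284). MCM2 and MCM5 overlapped. By role, 8 of the 9 clamp, loader and lagging strand genes were below 0, with a median of -0.05, and 3 of the 4 genes of nucleotide supply were, with a median of -0.08. RRM2 was the exception among the latter, with 503 and 468 CPM against 502 and 499 CPM. The medians of the other groups were -0.02 for licensing, 0.00 for firing (-0.0022), 0.01 for polymerases and primase, 0.08 for G1/S control and -0.01 for chromatin at the fork.

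**Figure D4:**
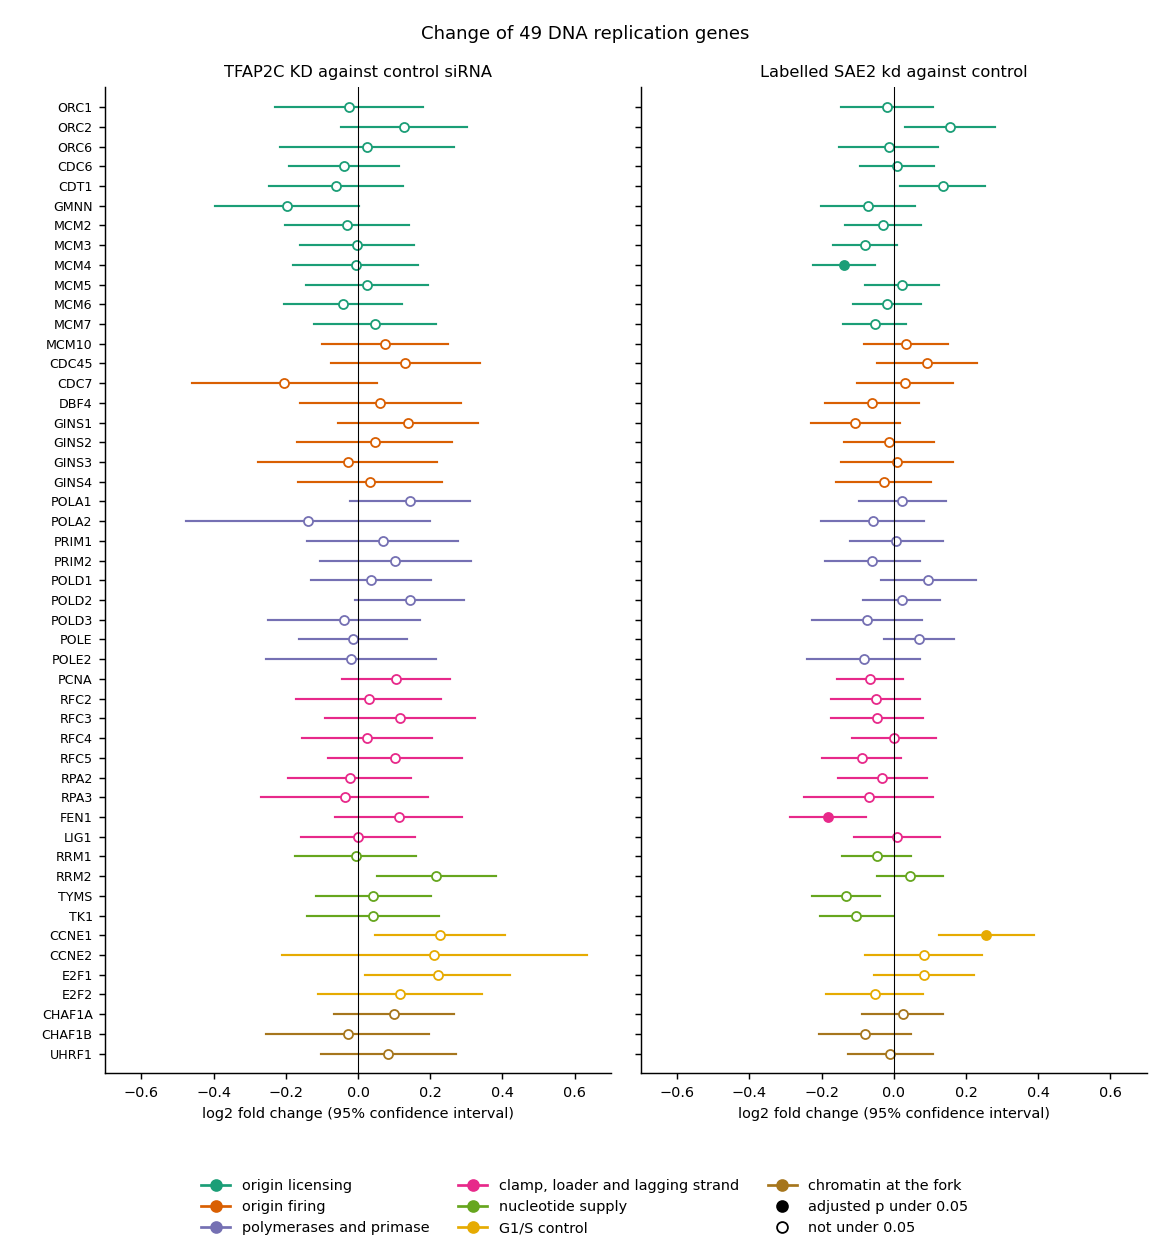
Log2 fold change of each of the 49 genes with its 95% confidence interval, by role (colours), on the left for TFAP2C KD and on the right for the libraries labelled SAE2 kd. Filled points have an adjusted p under 0.05, which holds for 0 genes on the left and for CCNE1, FEN1 and MCM4 on the right, and the intervals are narrower on the right.

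To compare the 2 experiments, the change in the libraries labelled SAE2 kd was subtracted from that in TFAP2C KD, in 1 model of the 8 libraries with 13179 genes. In this test 0 of the 49 members differed at an adjusted p under 0.05, where 2.37% of all genes did (0.903% above 0 and 1.47% below). At an unadjusted p under 0.05, 2 members were above 0 and 0 below, where 6.54% and 7.6% of all genes were. FEN1 had a difference of 0.28 (SE 0.093, 95% interval 0.08 to 0.48, adjusted p = 0.161) and GINS1, a GINS subunit, had 0.23 (adjusted p = 0.350). The median difference was 0.05, against 0.00 for all genes (-0.00056), and 33 of 49 were positive, where 49.9% of all genes were. Without replicate 2 of TFAP2C KD, 5 members were above 0 (FEN1, MCM4, RRM2, TK1 and TYMS) and CDC7 below, which is 10.2% and 2.04% of the members, beside 3.89% and 7.73% of all genes.

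The direction was mixed across the list. In 17 members the change was above 0 in TFAP2C KD and below 0 in the libraries labelled SAE2 kd, 13 were above 0 in both, 13 below 0 in both and 6 the other way round. Over the 49 members, which share libraries within each experiment, the log2 fold changes had a Pearson r of 0.30 and a Spearman rho of 0.23. CCNE1 was at the upper end of both, with 0.23 for TFAP2C KD against 0.26 for the libraries labelled SAE2 kd, and its difference had a 95% interval of -0.26 to 0.17. FEN1 had 78.5 and 77.0 CPM with control siRNA and 89.5 and 78.6 CPM in TFAP2C KD, above both controls but with 1 library close to them. Its log2 fold change was 0.11 there, where it did not pass (adjusted p = 0.592), and -0.18 in the other experiment. The experiments differ in target, delivery, doxycycline, time and gene models, which cannot be told apart here. Within the second experiment, doxycycline itself and the hairpin that it switches on cannot be told apart either, as all cells carry the hairpin.

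Members with an E2F word had a median log2 fold change of 0.03 in TFAP2C KD (32 genes, -0.20 to 0.22) and of -0.02 in the libraries labelled SAE2 kd (-0.13 to 0.13). The 10 members with none had medians of 0.11 (0.03 to 0.23) and 0.03 (-0.18 to 0.26). In TFAP2C KD 0 of these 10 were below 0, against 15 of the 32 with a word and 50.9% of all genes tested. In the libraries labelled SAE2 kd 4 of the 10 and 21 of the 32 were, against 50.1% of all genes tested. CCNE1 and FEN1, whose windows are printed above, are both among the 10, and moved in opposite directions in the libraries labelled SAE2 kd. MCM4, the other member called there, had no window. This split was not tested.

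Other genes of replication and of the cell cycle give the setting. Of 45 further replication genes, such as those of fork protection, RNA primer removal and histone supply, 0 passed in TFAP2C KD, and 2 rose (4.44%) and 2 fell (4.44%) in the libraries labelled SAE2 kd, which is near the 5.52% and 4.47% of all genes. POLD4, the smallest subunit of polymerase delta, rose by 0.38 (13.5 and 12.7 CPM against 17.4 and 16.7, adjusted p = 0.0131), and RNASEH2B, a subunit of the nuclease that removes RNA from DNA, rose by 0.24 (34.6 and 35.6 CPM against 39.9 and 43.1, adjusted p = 0.0325). TICRR, which acts with the firing kinases at origins, fell by 0.21 (85.9 and 85.2 CPM against 76.9 and 71.3, adjusted p = 0.0247), and NME1, a nucleoside diphosphate kinase, fell by 0.18 (169 and 179 CPM against 154 and 155, adjusted p = 0.0278). In all 4 the groups did not overlap, which was nearly given for genes picked by adjusted p. Of all genes, 25.5% lay above both controls and 25.8% below. By DESeq2 none of these 4 passed, with adjusted p from 0.0669 to 0.191, nor did they in the fit of all 8 libraries (0.0638 to 0.195). With library size alone RNASEH2B did not pass either (0.0576). Single libraries also ended the calls. RNASEH2B and TICRR lost theirs without either control (adjusted p 0.0948 to 0.16) and without replicate 2 of SAE2 kd (0.212 and 0.201). POLD4 and NME1 lost theirs without control replicate 2 (0.108 and 0.325) and without replicate 1 of SAE2 kd (0.0731 and 0.0797).

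In the list of 28 E2F, RB and S-phase cyclin genes, CDKN1A, the p21 inhibitor of cyclin-dependent kinases, was the only call in TFAP2C KD (1 of 27 tested, or 3.70%, beside 0.26% of all genes higher). It had 444 and 472 CPM with control siRNA and 744 and 675 CPM in TFAP2C KD, with the groups well apart (log2 fold change 0.63, SE 0.073, adjusted p = 0.00169). In the libraries labelled SAE2 kd it had 130 and 122 CPM against 123 and 113 CPM in the control and did not pass (0.09, adjusted p = 0.361). There CCND1, cyclin D1, rose by 0.30 (1111 and 1102 CPM against 1391 and 1337, adjusted p = 1.11e-06), and SKP2, which directs the degradation of the p27 inhibitor, fell by 0.23 (87.3 and 85.0 CPM against 73.1 and 74.1, adjusted p = 0.0115). With 1 of 28 each way (3.57%), the list was near the 5.52% and 4.47% of all genes. SKP2 did not pass without control replicate 1 (adjusted p = 0.0964) or in the fit of all 8 libraries (0.0620). CCND1 was at 0.32 in TFAP2C KD, with an adjusted p of 0.0596.

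Of the 40 mitosis genes, 0 rose and 12 fell (30.0%) in the libraries labelled SAE2 kd, where 4.47% of all genes fell. They had a median log2 fold change of -0.12, beside 2 of 49 lower and -0.02 in the replication genes. The 5 with the lowest adjusted p were KIF20A (-0.24, adjusted p = 0.00273), PTTG1 (-0.28, adjusted p = 0.00308), BUB1 (-0.21, adjusted p = 0.00709), AURKA (-0.22, adjusted p = 0.0101) and CCNB1 (-0.17, adjusted p = 0.0151), which act in turn in cytokinesis, sister chromatid cohesion, the spindle checkpoint, spindle assembly and entry into mitosis. KIF20A had 141 and 136 CPM in the control and 118 and 116 CPM in the libraries labelled SAE2 kd. PTTG1 had 67.3 and 65.8 CPM against 54.5 and 55.1 CPM, and BUB1 had 264 and 243 against 215 and 225. None of these overlapped. AURKA had 117 and 114 CPM against 98.3 and 100.0 CPM, and CCNB1 had 357 and 372 against 319 and 329, also with no overlap. As these 5 genes were picked by adjusted p, the lack of overlap was nearly given, and 25.8% of all genes lay below both controls. Without control replicate 1, KIF20A, BUB1 and AURKA did not pass (adjusted p 0.0505 to 0.205), nor did CCNB1 without control replicate 2 (0.202) or replicate 1 of SAE2 kd (0.0755). In the fit of all 8 libraries PTTG1 alone of the 5 passed, and the others had adjusted p from 0.0788 to 0.192. In TFAP2C KD 0 of the 40 passed, with a median of 0.03. Whether the lists differed from each other was not tested.

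**Figure D5:**
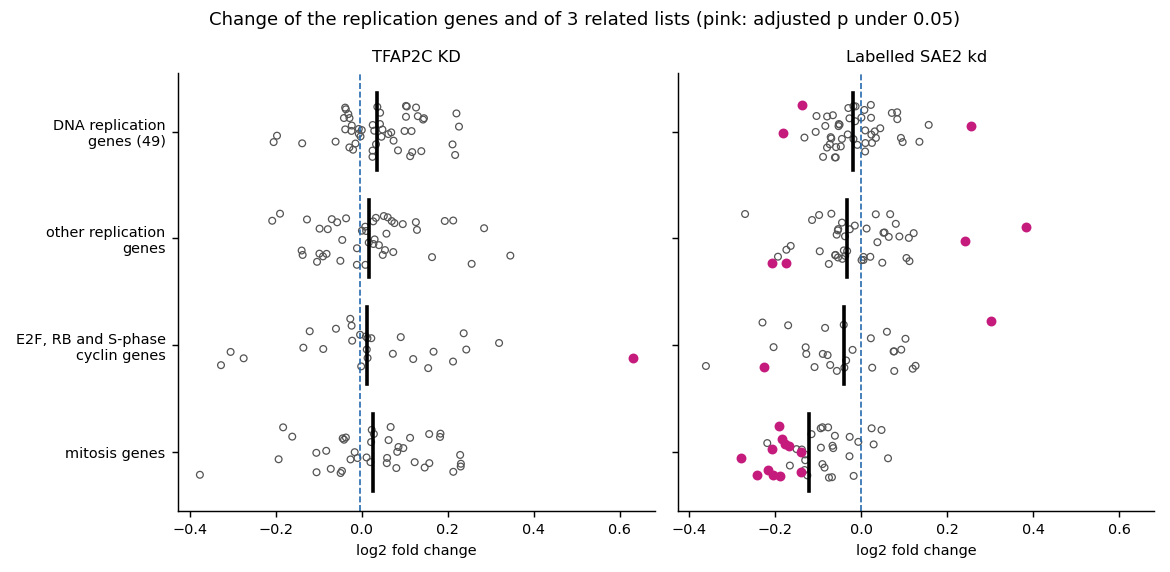
Log2 fold change of each gene of 4 lists with TFAP2C KD on the left and the libraries labelled SAE2 kd on the right, 1 point a gene. Black bars are list medians, the dashed line is the median of all genes tested, and filled pink points have an adjusted p under 0.05. The replication genes centre on 0.04 and -0.02, and the mitosis genes on the right centre on -0.12 with 12 genes lower.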

How the data were processed

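Reads of 8 mRNA-seq libraries were aligned with TopHat2 to hg19 and counted with HTSeq 0.9.1, per the labels, and the authors deposited raw read counts per gene in 1 table per experiment. The positions in the table of TFAP2C KD are those of GRCh38 and those of the other table are hg19. The strand setting is not given in the sources used here. In R 4.3.3 with edgeR 4.0.16, genes were filtered with filterByExpr, scaled by TMM and compared by the quasi-likelihood test, each table apart, with Benjamini-Hochberg adjustment over all genes tested and a threshold of 0.05. All tests are two-sided. The difference between experiments was fitted over shared symbols. Totals ran from 18213739 to 24465109 counts.

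The members and lists were chosen with earlier results of these data known, so no p is given over a list. Values per library are given for members that passed, the 3 largest rises and falls in each experiment, FEN1 in the difference, and up to 5 called genes of each other list by adjusted p. CDKN2A was named outside this rule, for its difference. CCNE2, MCM3, RRM2 in the libraries labelled SAE2 kd, GINS1 and the RPKM examples were chosen after their values were seen. The markers checked were colon epithelial, fibroblast, leukocyte and endothelial. The code was tested on simulated data.

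The alternatives were RLE size factors or library size in place of TMM, DESeq2 1.42.0, no filter, at least 10 counts in every library, a block for the replicate number, 1 fit of all libraries and each library left out. A crossed block and removal of a GC trend (a spline with 5 degrees of freedom) were added after seeing the data. Deviations of equally numbered replicates correlated at -0.18 and 0.02 over genes, so the numbers were not taken to pair samples.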

Additional observations from a re-analysis of the deposited data

Results flagged for a closer look

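The change of 4 genes outside the 49 differed between the experiments in the test of the difference (TFAP2C KD minus the libraries labelled SAE2 kd, edgeR over all 8 libraries). CDKN1A differed by 0.53 (SE 0.091, 95% interval 0.33 to 0.72, adjusted p = 0.00478), with 0.63 in TFAP2C KD against 0.09 in the libraries labelled SAE2 kd. Over the alternatives its adjusted p ran from 2.52e-08 to 0.0506, and it passed in all but 1, without replicate 2 of SAE2 kd. NME1 differed by 0.45 (SE 0.093, 95% interval 0.25 to 0.64, adjusted p = 0.0169), with 0.28 and -0.18. AURKA differed by 0.43 (SE 0.10, 95% interval 0.22 to 0.65, adjusted p = 0.0328), with 0.23 and -0.22. CDKN2A, of the list of E2F, RB and S-phase cyclin genes, encodes inhibitors of the cell cycle and was named from this test, after its value was seen. It had 55.6 and 59.7 CPM with control siRNA and 48.4 and 43.5 CPM in TFAP2C KD (-0.33, adjusted p = 0.131). In the other experiment it had 37.8 and 36.6 CPM in the control and 40.0 and 39.8 CPM in the libraries labelled SAE2 kd (0.10, adjusted p = 0.436). The groups did not overlap in either, where 22.4% of all genes lay below both controls in TFAP2C KD and 25.5% above them in the other. The difference of CDKN2A was -0.44 (SE 0.11, 95% interval -0.67 to -0.22, adjusted p = 0.0400). It passed in 6 of 13 alternatives, with adjusted p up to 0.256. For both NME1 and AURKA the call was lost in about as many alternatives as it was kept, in 6 and 7 of 13, with adjusted p up to 0.125 and 0.155. With 2 libraries a group, single libraries that stand apart within a group were not searched for.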

How the results depend on the processing

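In TFAP2C KD, 0 replication genes were called in 11 of 13 alternatives. Leaving out each library gave 0 to 8 members higher and 0 to 1 lower, with medians of -0.0307 to 0.0849. In the libraries labelled SAE2 kd the same 3 members were called with RLE size factors, with DESeq2, with no filter, with at least 10 counts in every library and with the replicate block. Library size alone gave a median of -0.0445 over the members, against -0.03 over all genes, and added TYMS. The fit of all 8 libraries left 0 lower, and removal of the GC trend gave 3 higher. Leaving out each library gave 0 to 3 higher and 0 to 1 lower, with medians of -0.0310 to -0.0081. In the difference between experiments, 0 members were called in 12 of 13 alternatives, and leaving out each library gave 0 to 5 above and 0 to 1 below.

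Counts over all genes moved more. In TFAP2C KD, 111 genes were called (39 higher, 72 lower), and library size alone gave 23 higher, no filter 398 (142 and 256), the fit of all 8 libraries 271 (107 and 164) and the GC trend removed 621 (309 and 312). In the libraries labelled SAE2 kd, 1336 were called (738 and 598), with 673 by DESeq2 (447 and 226), 696 in the fit of all 8 libraries (406 and 290) and 2046 with the GC trend removed, 1200 of them higher. In the difference, no filter gave 607 (253 above, 354 below) against 313. Leaving out each library gave 49 to 2825 genes in TFAP2C KD (14 to 1330 higher, 35 to 1495 lower), 833 to 1271 in the libraries labelled SAE2 kd (477 to 736 and 356 to 535) and 113 to 1554 in the difference (32 to 520 and 81 to 1034).

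The replicate block raised the count in TFAP2C KD to 172, with 124 lower, and cut that of the difference to 173 (61 above, 112 below), and it changed no call of a replication gene. NME1, AURKA and CDKN2A in the difference lost theirs. Crossing the numbers in TFAP2C KD gave 467 (201 higher, 266 lower), chosen after seeing the data. UBA2 ran from -0.106 to 0.0375 with each library left out, above 0 without control replicate 1 only. The difference of CCND1, near 0, ran from -0.0247 to 0.0429, and fell below 0 without control siRNA replicate 1 (-0.0090), replicate 1 of TFAP2C KD (-0.0228) or replicate 2 of SAE2 kd. The cause of these shifts was not tested. With 2 libraries a group and standard errors of about 0.09 and 0.06 on the log2 scale, small changes of a member were not detectable, and the replicate differences that follow GC content add to the spread.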
